A study of Mus musculus with 2 samples.

Results

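Ranbp3l, Scel, Ano4, Sgcz, Enpp2, Pcsk6, Magi2, Apbb2, Scin and Mrps6 are 10 of the 32227 genes counted, and they stood higher in nuclei of the thick ascending limb (TAL) from the medulla than in those from the cortex of the mouse kidney. They were named for that difference in these same libraries, so each medullary to cortical ratio below is a description with no test, and the question put to the data was whether the genes went together from nucleus to nucleus or singly.

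Nuclei came from B6 male mice labelled WT, with an age label of 12 that carries no unit, in which the NKCC2-CreERT2 driver (NKCC2 is the protein of Slc12a1) switched on a Sun1-sfGFP nuclear tag (the INTACT system) after tamoxifen at 1 mg per day for 5 days and a wait of 10 days. Kidneys were cut by hand, the outermost part being taken as cortex and all that lay deeper as medulla, so deep cortex falls in the medullary tissue, and GFP-positive nuclei were sorted and sequenced in 1 library per region. Both groups carry the tag and the drug, the labels do not say how many mice entered a library, and region cannot be told apart from library or dissection. Intervals below are 95% counting intervals for 1 library and cover neither mice nor dissections.

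The TAL is the water-tight segment of the loop of Henle that reabsorbs NaCl through the cotransporter NKCC2 and feeds the medullary salt gradient, so its cells lie in increasingly concentrated interstitium from cortex to deep outer medulla. Cells in that setting take up or make organic osmolytes such as myo-inositol, sorbitol, betaine and taurine, largely under the transcription factor NFAT5 (TonEBP), which binds tonicity elements in DNA. TAL-α, TAL-β and TAL-γ are cell types set apart by claudins and potassium channels, and macula densa (MD) cells are the sensors of luminal salt where the TAL touches its own glomerulus.

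The filtered matrices held 5442 cortical barcodes with 16457300 counts and 8121 medullary barcodes with 20947211 counts, with medians of 2427 and 2430 counts, and the libraries shared 0 barcodes. Barcodes with at least 10 Slc12a1 counts were taken as TAL (5218 and 7967), then called MD at 3 or more counts of Nos1 and Pappa2, else TAL-β at 2 or more of Tmem52b, else TAL-γ at 2 or more of Tmem207 and Gpc5, else TAL-α. That gave 2824 TAL-α, 1493 TAL-β, 248 TAL-γ and 653 MD nuclei from cortex and 3776, 571, 3542 and 78 from medulla. All 6 TAL markers checked were detected in every class, which in counts summed over a class is no check of the class names. Markers of other cell types were not even between regions: 19.0% of cortical and 3.52% of medullary TAL-α barcodes held 3 or more such counts, and proximal tubule markers summed to 2241 and 346 CPM (counts per-million of all counts of the class in its library). Values without those barcodes are given for some comparisons, and for medulla over cortex in TAL-γ and MD they were not computed. Cldn16 and Cldn10 stood at 153 and 156 CPM in cortical TAL-γ, against 55.0 and 211 CPM in medullary TAL-γ. Kcnj10 stood at 144 and 109 CPM there, and proximal tubule markers summed to 3108 and 316 CPM. The study describes TAL-γ as claudin 10-positive and exclusive to the medulla, so cortical TAL-γ is here a name from the count rule alone. The 10 genes took 0.295% of cortical and 1.16% of medullary TAL counts.

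The genes lie on 8 chromosomes in GRCm39 and all are protein-coding in the GENCODE M39 annotation. Their spans are long, with a median of 152 kb against 19.2 kb for 21770 protein-coding genes, and exons make up 0.21% (Sgcz) to 7.87% (Ranbp3l) of the span of the canonical transcript, the rest being intron. Antisense genes that were also counted overlap an end of Sgcz, Enpp2, Pcsk6, Magi2 and Apbb2, and reads in those overlaps cannot be told apart where strand was not used. The counted long noncoding gene Gm29254 overlaps 2516 bases at the end of Magi2 on the same strand, where strand would not separate the reads. Magi2 covers chr5:19431741-20909790 on the plus strand and Sgcz covers chr8:37989452-39128662 on the minus strand. Ano4 lies at chr10:88784789-89181063 (minus), Apbb2 at chr5:66454438-66776381 (minus), Pcsk6 at chr7:65511482-65700134 (plus) and Enpp2 at chr15:54701324-54816288 (minus). Scel lies at chr14:103750515-103851219 (plus), Scin at chr12:40109755-40184227 (minus), Ranbp3l at chr15:8997242-9068799 (plus) and Mrps6 at chr16:91854965-91909592 (plus).

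Mrps6 shares its annotated first base and strand with Slc5a3, which ends at 91884361 and encodes the sodium/myo-inositol cotransporter, and the long noncoding gene Gm16310 lies wholly inside Mrps6 on the same strand (chr16:91891456-91893378). How reads in that overlap were divided among the 3 genes is not given in the sources used here, so Mrps6 counts are uncertain to that extent. The 250 bases before the shared start hold a match to the tonicity element (TGGAAA, then 3 free bases, then C or T, either strand), which begins 58 bases before the first base and is in capitals below.
Mrps6 and Slc5a3, chr16:91854715-91854964, plus strand, GRCm39: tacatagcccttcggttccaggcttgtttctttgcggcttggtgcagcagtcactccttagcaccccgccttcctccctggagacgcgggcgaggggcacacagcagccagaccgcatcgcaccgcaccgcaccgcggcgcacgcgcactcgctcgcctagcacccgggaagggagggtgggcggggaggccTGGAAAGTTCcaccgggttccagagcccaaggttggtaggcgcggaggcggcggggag
Each window precedes the start of the canonical transcript, which for Ranbp3l, Ano4, Enpp2 and Pcsk6 lies inside the gene span given above, so those windows fall wholly or partly within the gene. Mrps6 was the 1 gene of 10 with this match, and 9.42% of 21757 windows of the same length before protein-coding genes hold it. The HNF1 letters GTTAAT, on either strand, occurred in the window of Ranbp3l alone, against 6.28% of all windows. The estrogen-related receptor letters AAGGTCA, the AP-1 letters TGANTCA and the hypoxia core ACGTG occurred in the windows of 0 of the 10 genes, against 3.93%, 6.18% and 17.0% of all windows. Matches are descriptions of letters and not of binding.

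Levels by class are given as CPM of the summed counts of a class in a library, a scale that does not allow for gene length, so the order of genes by level is not read. In TAL-α all 10 genes were at least 1.5-fold higher in medulla than in cortex, a size reached by 4.79% of 12585 genes with at least 50 counts. The median ratio of the 10 genes was 3.32, against 0.95 over all genes. This is the contrast that chose them, and nothing is read from the count.

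**Figure D1:**
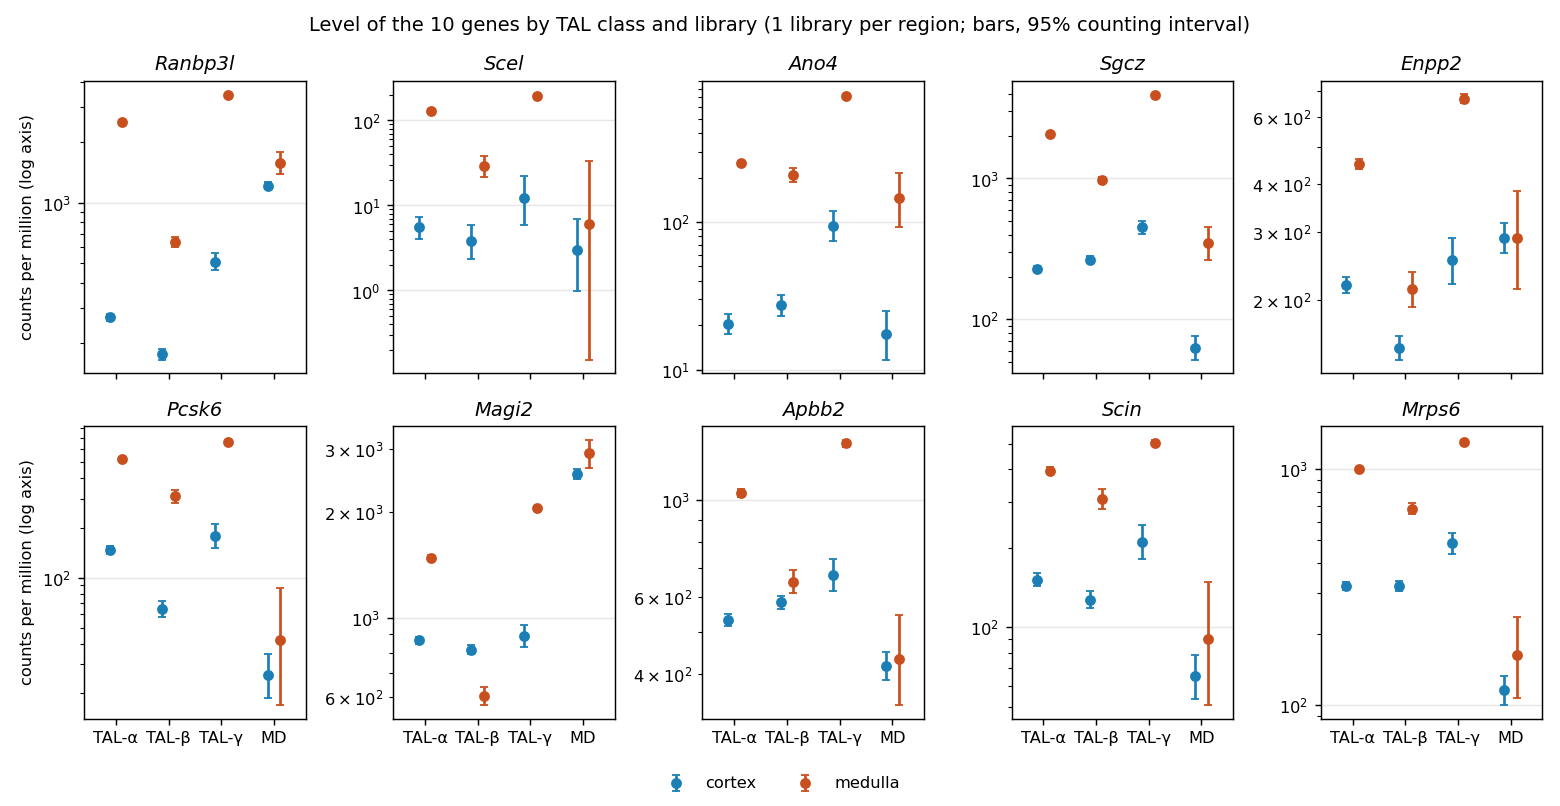
CPM (log axis, a separate range for each gene) of the 10 genes in TAL-α, TAL-β, TAL-γ and macula densa (MD) nuclei of the cortical and medullary libraries, with 95% counting intervals. Medullary TAL-γ is the highest point for 9 of the 10 genes, while for Magi2 both MD points (2549.9 and 2915) lie above it.

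Ranbp3l encodes a RanGTP-binding protein of the nuclear export machinery. Its level was 269.7 CPM in cortical TAL-α, 177 in TAL-β, 509 in TAL-γ and 1219 in MD, against 2538, 638, 3429 and 1578 CPM in the same classes of medulla. The ratio between regions was 9.41 (9.01 to 9.84) in TAL-α and 1.30 (1.13 to 1.47) in MD, so cortical and medullary MD nuclei were far closer than their TAL-α neighbours. All 8 intervals were separate, in the order medullary TAL-γ, TAL-α and MD, then cortical MD, medullary TAL-β, and cortical TAL-γ, TAL-α and TAL-β.

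Mrps6 encodes a protein of the small subunit of the mitochondrial ribosome. It stood at 321, 319.8, 485 and 116 CPM in cortical TAL-α, TAL-β, TAL-γ and MD and at 1001, 681, 1308 and 163 CPM in the medullary classes. Every medullary TAL class lay above every cortical class, and MD was lowest in each library. With all barcodes the cortical TAL-α and TAL-β values did not differ beyond counting error, nor did the MD values. Without barcodes holding other markers the cortical TAL-β to TAL-α ratio of Mrps6 was 1.11 (1.03 to 1.19).

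Sgcz (ζ-sarcoglycan) and Ano4 (anoctamin 4, of the TMEM16 family of chloride channels and lipid scramblases) are membrane proteins. Sgcz reached 229, 265, 451 and 63.0 CPM in cortical TAL-α, TAL-β, TAL-γ and MD, and 2064, 973, 3919 and 349 CPM in medulla. Ano4 reached 20.3, 27.3, 94.5 and 17.4 CPM in cortex and 250.0, 208, 714 and 145 CPM in medulla. These were the genes with the steepest step from TAL-α to TAL-γ in medulla, at 2.86 (2.72 to 3.00) for Ano4 and 1.90 (1.86 to 1.93) for Sgcz. In cortex the same step was 4.65 (3.50 to 6.13) and 1.97 (1.76 to 2.20). For Ano4 the intervals of medullary MD overlapped those of medullary TAL-β and cortical TAL-γ, and for Sgcz those of cortical TAL-γ and TAL-β.

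Enpp2 (autotaxin, which makes lysophosphatidic acid outside the cell) and Pcsk6 (PACE4, a proprotein convertase) are secreted enzymes. Enpp2 stood at 219, 149.6, 253 and 290.3 CPM in cortical TAL-α, TAL-β, TAL-γ and MD and at 451, 213, 669.6 and 289 CPM in medulla. Below medullary TAL-γ and TAL-α, its next 5 values ran from 213 to 290.3 CPM with intervals that overlapped their neighbours. Pcsk6 stood at 147, 64.8, 179 and 25.8 CPM in cortex and at 517, 309.7, 663 and 42.2 CPM in medulla, and was lowest in MD of each library, where 43 and 7 counts were found. Its cortical TAL-γ and TAL-α intervals overlapped, as did those of MD.

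Magi2 (a junctional scaffold with PDZ domains) and Apbb2 (FE65-like, an adaptor of the amyloid precursor protein) bind the tails of membrane proteins. Magi2 stood at 867, 816, 893 and 2549.9 CPM in cortical TAL-α, TAL-β, TAL-γ and MD and at 1481, 604, 2043 and 2915 CPM in medulla. It was highest in MD in both libraries, which held for none of the other 9 genes. Apbb2 stood at 531, 583, 674 and 418 CPM in cortex and at 1037, 651, 1346 and 434 CPM in medulla, and the intervals of cortical TAL-γ and medullary TAL-β overlapped. Both genes were also counted outside the TAL: barcodes with 5 or more proximal tubule marker counts and at most 2 of Slc12a1 held 1632 and 955 CPM of Magi2 and Apbb2 there, above cortical TAL-α, and 638 and 863 CPM in medulla. Without barcodes carrying other markers, the TAL-α ratio of medulla to cortex was 2.23 (2.15 to 2.32) for Magi2 and 2.33 (2.23 to 2.44) for Apbb2, against 1.71 (1.66 to 1.76) and 1.95 (1.88 to 2.02) with them. For Enpp2, which stood at 580.2 CPM in cortical proximal tubule barcodes, it was 2.91 (2.70 to 3.14) against 2.06 (1.95 to 2.18).

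Scin (scinderin, a calcium-dependent actin-severing protein) and Scel (sciellin, a precursor of the cornified envelope of stratified epithelia) are the remaining genes. Scin stood at 152, 128, 212 and 65.4 CPM in cortical TAL-α, TAL-β, TAL-γ and MD and at 394, 309, 502 and 90.4 CPM in medulla. Scel stood at 5.52, 3.82, 12.1 and 3.00 CPM in cortex and at 128, 29.0, 194 and 6.02 CPM in medulla, the last from 1 count. It had the largest ratio between regions in TAL-α, 23.2 (17.2 to 32.1), resting on 44 cortical and 1203 medullary counts. Scel counts were in 1.20% of cortical and 19.4% of medullary TAL-α nuclei, and in 0.496% and 11.04% after each nucleus was thinned to 1000 counts. In barcodes with proximal tubule counts (median depths 3488 and 4590 counts, against 2425 and 2404 in TAL-α) the shares were 1.16% in cortex, level with cortical TAL-α, and 0 of 97 in medulla (up to 6.55 CPM allowed by 3 counts). For Ranbp3l those barcodes gave 51.2% in cortex, above the 33.4% of cortical TAL-α, so its cortical TAL-α share is not read as expression. In CPM those cortical barcodes held 218 of Ranbp3l, near the 269.7 of cortical TAL-α. Sgcz, Scin and Mrps6 stood at 14.9, 7.44 and 12.4 CPM there, far below cortical TAL-α, and the source of the Ranbp3l counts was not tested. Enpp2, Magi2 and Apbb2 had shares of 75.6%, 76.7% and 94.2% there, also above cortical TAL-α (33.0%, 50.6% and 64.7%), and theirs are not read either. Ratios to the cortical TAL-α level of these genes carry the same limit. Medullary TAL-α gave 73.6% of nuclei for Ranbp3l, against 45.4% in medullary proximal tubule barcodes, and 62.2% against 14.4% after thinning.

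The classes of medulla fell in a common order for most of the genes. From TAL-α to TAL-γ all 10 were higher in TAL-γ, with ratios of 1.27 to 2.86 and a median of 1.37, while the median over all genes was 1.00. Ano4, Sgcz and Scel passed 1.5-fold, which 2.52% of 12347 genes did. The direction for Ranbp3l, 1.35 (1.33 to 1.37), depended on how nuclei were classed: with each deposited cluster given its most frequent class the ratio was 0.933. The median of the 10 was then 1.16. In medullary cluster 4 the rule called 64.2% of nuclei TAL-α, yet Kcnj10, positive in the study's TAL-γ, was at 0.865 CPM over the whole cluster. Cluster 7, 78.5% TAL-γ by the rule, held more Cldn16 (172 CPM) than Cldn10 (122 CPM). TAL-α itself was uneven: among the 7 largest clusters, cluster 1 (96.7% TAL-α) held 3822 CPM of the 10 genes together. Clusters 3 and 4, also led by TAL-α, held 13044 and 22154 CPM, and clusters 2, 5 and 7, led by TAL-γ, held 13890, 20082 and 10151 CPM. The 13 genes of the study's cortex score had a median TAL-γ to TAL-α ratio of 0.28 in medulla. The part of such mixing, of deep cortex included, in the TAL-γ ratios was not tested. From TAL-α to TAL-β all 10 were lower, 7 of them by at least 1.5-fold, against 7.95% of 11129 genes. Scel and Ranbp3l differed most, at 0.23 (0.17 to 0.30) and 0.25 (0.24 to 0.27), while Ano4 and Scin were at 0.83 (0.74 to 0.93) and 0.78 (0.71 to 0.86). The nuclei just outside and just inside the TAL-γ threshold, with 1 and 2 counts of Tmem207 and Gpc5, held 12196 and 13595 CPM of the 10 genes together, and those with 4 or more held 15193.

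In cortex 5 genes were at least 1.5-fold higher in TAL-γ than in TAL-α, against 7.9% of 11145 genes: Ano4 at 4.65, Scel at 2.19 from 10 counts, Sgcz at 1.97, Ranbp3l at 1.89 and Mrps6 at 1.51. The median TAL-β to TAL-α ratio there was 0.89, and 2 genes (Pcsk6 at 0.44 and Ranbp3l at 0.66) were at least 1.5-fold lower, against 4.15% of 12244 genes. Without barcodes holding other markers 5 were lower, and the share over all genes was not computed for that set. Enpp2 at 0.32 and Magi2 at 0.62 were among the 5, as was Scel at 0.63, with an interval of 0.26 to 1.36 that includes no difference. Ano4 was higher at 1.55 (1.16 to 2.05), a size that 5.44% of genes reached with all barcodes. Between regions, 7 of the 10 genes were at least 1.5-fold higher in medullary than in cortical TAL-β, against 3.28% of 10489 genes. Magi2 was lower there, at 0.74 (0.69 to 0.79). Without barcodes holding 3 or more other markers, which were 29.0% of cortical and 5.78% of medullary TAL-β, Magi2 turned to 1.41 (1.29 to 1.54), Enpp2 moved from 1.42 to 4.27 and 8 genes passed 1.5-fold. In nuclei named TAL-γ by the count rule all 10 genes were at least 1.5-fold higher in medulla, against 12.4% of 10856 genes, with a median ratio of 3.20 and 248 cortical nuclei behind the comparison. Of those cortical nuclei 27.0% held 3 or more other markers, and the ratios without them were not computed. In MD 9 of the genes had at least 50 counts, and 3 of them passed that size, against 8.15% of 6272 genes. They were Ano4 at 8.31 (4.63 to 14.8), Sgcz at 5.55 (3.96 to 7.72) and Pcsk6 at 1.64 (0.62 to 3.67), the last with 7 medullary counts and an interval that includes no difference. The medullary Ano4 and Sgcz counts, 24 and 58, lay in 7 and 11 of 78 MD nuclei, an unevenness that the intervals do not cover. In the deposited clusters made mainly of MD nuclei, Ano4 was lower in medulla, at 5.34 CPM from 1 count against 10.8 in cortex. Sgcz was at 64.1 and 25.4 CPM in those clusters. Scel, with 1 medullary and 5 cortical counts, was outside the genes compared.

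**Figure D2:**
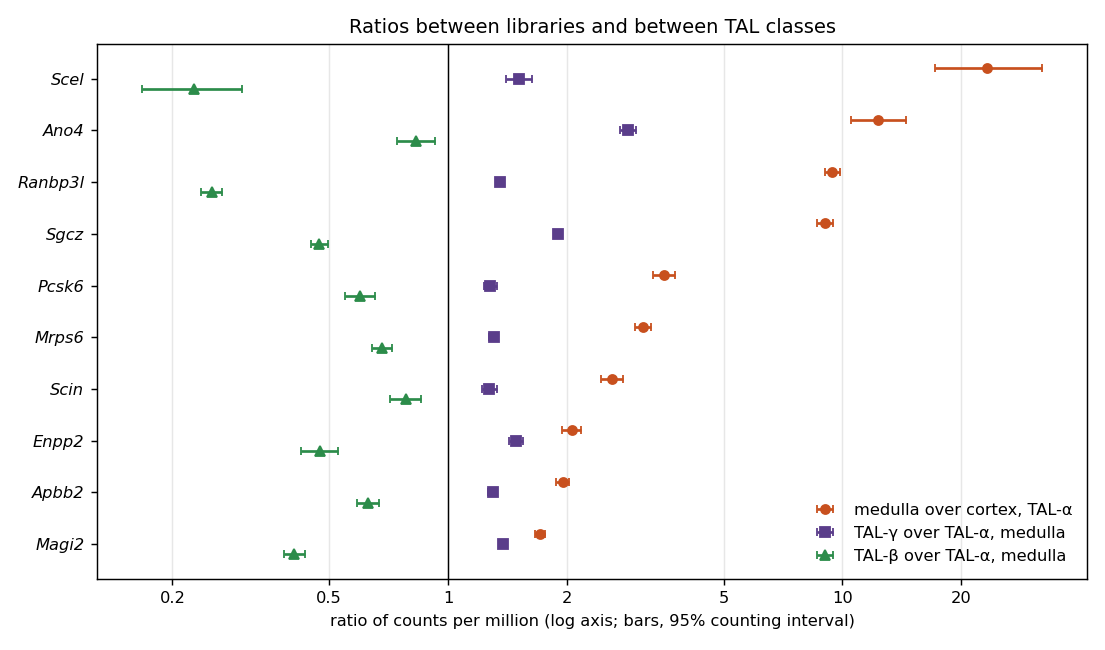
Ratios of CPM (log axis, 95% counting intervals) of the 10 genes for medulla over cortex in TAL-α and, within the medullary library, TAL-γ over TAL-α and TAL-β over TAL-α. The region ratios run from 1.71 for Magi2 to 23.2 for Scel, all TAL-γ ratios lie above 1 and all TAL-β ratios below 1.

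Macula densa nuclei divided the genes. In cortex Ranbp3l was 4.52-fold (4.25 to 4.80) and Magi2 2.94-fold (2.83 to 3.05) higher in MD than in TAL-α, while Pcsk6, Sgcz, Mrps6 and Scin were at 0.18, 0.28, 0.36 and 0.43 of TAL-α. Scel, with 5 counts in MD and 44 in TAL-α, fell short of the 50 counts set for this comparison. Without barcodes holding other markers Enpp2 also passed 1.5-fold, at 1.64, and Magi2 was at 4.13. Genes at least 1.5-fold higher were 12.1% and genes as much lower 12.3% of 11465 tested. In medulla the 4 genes low in cortical MD were low again, from 0.08 to 0.23 of TAL-α. Magi2 was again higher, at 1.97 (1.79 to 2.16), and the only gene to pass 1.5-fold upward, against 23.5% of genes, and Ranbp3l was at 0.62 (0.55 to 0.70). There, 9 of 10 were at least 1.5-fold lower in MD, against 21.2% of 10775 genes.

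The deposited graph clusters, 13 in each library, show how far the genes went as a block. They were drawn from the same counts, so their differences are descriptions. In medulla, cluster 4 (1003 nuclei, 64.2% TAL-α) and cluster 5 (976 nuclei, 95.9% TAL-γ) were the highest pair for 6 of the 10 genes: Ranbp3l at 6714 and 5358 CPM, Scel at 346 and 259, Sgcz at 5147 and 5410, Enpp2 at 990.3 and 993, Apbb2 at 2053 and 1685, and Mrps6 at 1734 and 1695. The 10 genes together took 22154 and 20082 CPM of those clusters. Cluster 1 (1542 nuclei, 96.7% TAL-α) and cluster 6 (765 nuclei, 59.0% TAL-β) held 3822 and 3620 CPM, and Ranbp3l stood at 491 and 382 CPM in them. Clusters made mainly of TAL-α nuclei thus ran from 3822 to 22154 CPM within the medullary library. Of the clusters with TAL nuclei only cluster 6 was lower.

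Not every gene was ordered alike by cluster. Ano4 stood at 929.6 and 897 CPM in clusters 5 and 2, both mainly TAL-γ, and at 489 CPM in cluster 4, where Ranbp3l was highest. Pcsk6 was highest in cluster 2 (784 CPM). In cortex, cluster 5 (392 nuclei, 92.6% TAL-α) was the highest for Scel, Ano4, Sgcz, Pcsk6, Apbb2, Scin and Mrps6 among the 7 clusters compared, at 29.2, 136, 675, 464, 691, 308 and 642 CPM. It was second to the MD-rich cluster 3 for Ranbp3l (913 against 1607 CPM) and Enpp2 (266 against 288 CPM). Magi2 was not high there, at 783 CPM, below clusters 3 (3155 CPM), 8 (1098 CPM) and 10 (999.7 CPM). Its summed other markers, 262 CPM, were close to the 248 CPM of the largest cortical cluster, in which Ranbp3l stood at 103 CPM.

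The genes went together across medullary TAL-α nuclei taken as 1 class. That class spanned clusters low and high in them, with 3822 CPM of the 10 genes in cluster 1 and 22154 CPM in cluster 4. For each pair a rate correlation was estimated, that is, the correlation of the underlying shares of counts after the part that random counting adds to the variances and covariances was removed, since counts this sparse pull an ordinary correlation towards 0. All 45 pairs were above 0 over 3776 nuclei, with a median of 0.39 and a range of 0.15 to 0.68. The median was 0.00 over all pairs of the 2595 genes with a mean of at least 0.2 counts per nucleus. Here and below, all pairs are those of genes with that mean in the class or cluster, a limit not set for the 10. A rate correlation of at least 0.3 was reached by 30 of the 45 pairs and by 2.91% of all pairs. Unlike the genes of the 45 pairs, those of all pairs were not chosen for a regional difference. The part of that choice in the contrast was not tested, here or in the other classes and clusters. Deep cortex was included in the medullary tissue, and the part of such nuclei in the correlations was not tested either. The ordinary Pearson r of depth-adjusted counts had a median of 0.21 over the same 45 pairs. Nuclei of a library share its free RNA, dissection and range of depths.

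Ranbp3l had the highest median over its 9 pairs, 0.53. Its rate correlation was 0.68 with Mrps6, 0.66 with Apbb2, 0.64 with Enpp2, 0.63 with Sgcz, 0.53 with Magi2 and 0.51 with Scel. The 21 pairs among those 7 genes had a median of 0.51. Ano4, Scin and Pcsk6 were looser: the 21 pairs joining them to the 7 had a median of 0.28, and the 3 pairs among themselves 0.25. Pcsk6 was the least tied, with a median of 0.22 over its 9 pairs and 0.15 with Scel. This division was drawn after the values were seen.

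**Figure D3:**
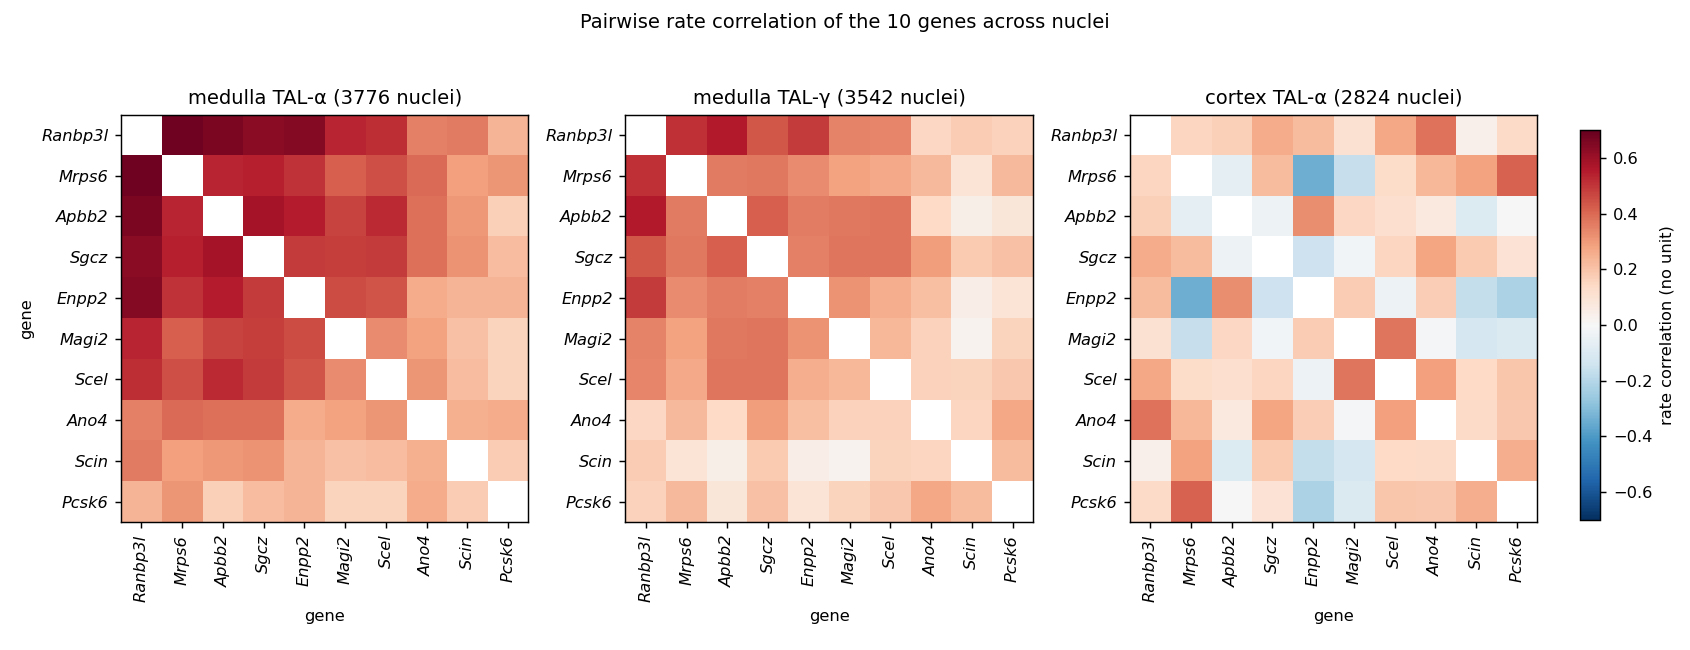
Pairwise rate correlation (colour, no unit; white diagonal not computed) of the 10 genes across nuclei of medullary TAL-α, medullary TAL-γ and cortical TAL-α. All pairs are above 0 in the medullary classes, with medians of 0.39 and 0.23, and the cortical panel mixes both signs around a median of 0.14.

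Medullary TAL-γ nuclei showed the same sign in all 45 pairs with a lower median, 0.23 (range 0.03 to 0.56, 3542 nuclei), and 17 pairs reached 0.3, against 3.44% of all pairs. Ranbp3l with Apbb2, Mrps6 and Enpp2 were again the highest, at 0.56, 0.51 and 0.49, and Scin with Magi2 the lowest, at 0.03. In medullary TAL-β, with 571 nuclei, the median was 0.36 and 29 of 45 pairs reached 0.3, against 18% of all pairs. Cortical TAL-α gave a median of 0.14 with 31 pairs above 0 and 4 at 0.3 or more, against 8.34% of all pairs. Enpp2 with Mrps6 was at -0.34 there, Enpp2 with Apbb2 at 0.33 and Pcsk6 with Mrps6 highest at 0.41. The median without barcodes holding other markers was 0.13. Cortical TAL-β gave 7 pairs at 0.3 or more, against 18% of all pairs, and cortical TAL-γ 22, against 26% over 248 nuclei, with a median of 0.28 and 43 of 45 pairs above 0. In cortical MD the median was -0.04, and 13 pairs reached 0.3, against 22.9% of all pairs over 653 nuclei. The share of all pairs at this size was 18% to 26% in the 4 classes with the fewest nuclei compared, and there the counts of pairs are given as descriptions only.

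The correlations were lower inside clusters. In the 7 largest medullary clusters, taken 1 at a time, the median pairwise rate correlation was 0.04 to 0.14. There 0 to 5 of the 45 pairs reached 0.3, against 8.25% to 17.1% of all pairs. Scel averaged below 0.2 counts in clusters 1 and 6, and Ano4 in cluster 1, so those clusters are not like for like. Of all pairs, 22.9% to 41.6% lay above the median of the 45. Pooled within clusters the median was 0.10 over TAL-α and 0.07 over TAL-γ nuclei, with 42 and 36 of the 45 pairs above 0 and 1 pair at 0.3 or more in each. Shares over all pairs were not computed for the pooled values. A cluster narrows the range of any gene that helped to draw it, and that part was not tested. Cortical cluster 5 had a median of 0.30 over 392 nuclei, 44 of 45 pairs above 0 and 22 at 0.3 or more, against 21.6% of all pairs at that size. Scel averaged below 0.2 counts there too.

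A second view left each gene out in turn. Nuclei of a class were put into quartiles by the summed share of the other 9 genes, and the level of the gene left out was taken in each quartile. In medullary TAL-α all 10 genes were higher at every step from the lowest to the highest quartile, and all 10 were at least 1.5-fold higher in the top quartile, against 8.96% of 8650 other genes set against the quartiles of all 10. Those other genes were not chosen for a regional difference, as the 10 were. The part of that choice, and of any deep cortical nuclei in the class, was not tested. The other genes had at least 50 counts in the lowest and highest quartiles together. The share of them higher at every step was not computed for any class. The median ratio of top to bottom was 5.05. Ranbp3l went through 364, 1289, 3338 and 5736 CPM, Sgcz through 452, 1119.5, 2636 and 4470 CPM, and Scel through 8.28, 47.5, 171 and 322 CPM. Their top to bottom ratios were 15.7 (14.7 to 16.9), 9.88 (9.29 to 10.5) and 38.9 (25.2 to 63.2).

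Ano4 had a ratio of 9.76, Enpp2 of 5.15, Magi2 of 4.94, Apbb2 of 3.48 and Mrps6 of 3.26 in the same quartiles. Scin and Pcsk6 moved least, at 2.05 (1.86 to 2.26) and 1.78 (1.63 to 1.93). In quartiles by all 10 genes, median depth was 2608, 2515, 2340 and 2215 counts from the lowest to the highest, and summed other markers were 412, 856, 418 and 160 CPM, so the highest quartile was the shallowest and had the lowest summed markers, most of which were proximal tubule genes. Summed immune markers went the other way, at 9.86, 13.7, 23.5 and 33.8 CPM. Over all medullary TAL-α nuclei most of that sum was Csf1r, at 15.7 CPM, with Cd74 at 2.88 and Ptprc at 0.96 CPM. The part of depth and of these markers in the result was not tested. Thin limb markers, which a medullary dissection could carry in, were at 51.3 and 44.7 CPM in the lowest and highest quartiles.

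**Figure D4:**
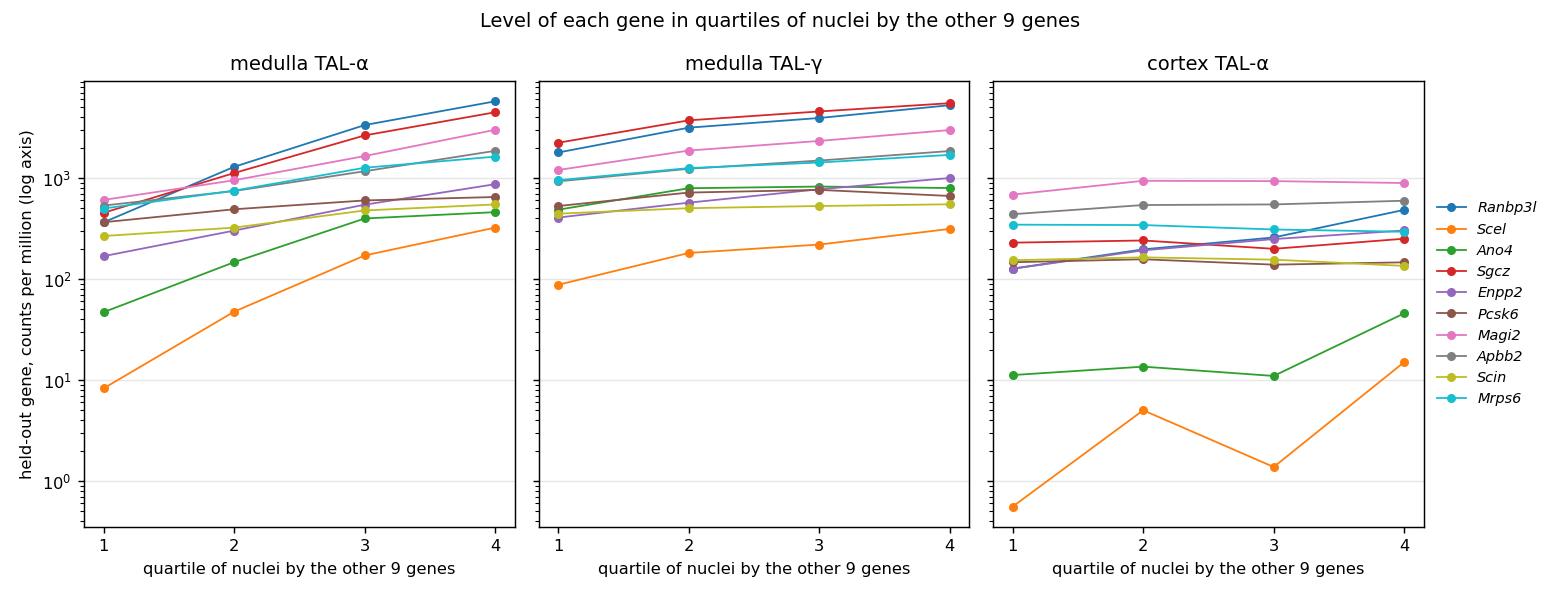
CPM (log axis) of each gene in quartiles of nuclei ordered by the other 9 genes, for medullary TAL-α, medullary TAL-γ and cortical TAL-α. In medullary TAL-α every line climbs at each step, from 364 to 5736 CPM for Ranbp3l and from 364 to 648 CPM for Pcsk6, while in cortical TAL-α Sgcz, Pcsk6, Scin and Mrps6 stay nearly flat.

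In medullary TAL-γ the median top to bottom ratio was 2.23, and 8 of 10 genes passed 1.5-fold, against 4.66% of 8669 other genes. Scin and Pcsk6 were at 1.24 (1.14 to 1.35) and 1.26 (1.16 to 1.36). Ano4 and Pcsk6 did not climb at the last step, going from 821 to 794 CPM and from 761 to 663 CPM. In medullary TAL-β all 10 genes passed 1.5-fold, against 9.82% of 3472 other genes, and 7 of the 10 were higher at every step. Ranbp3l stood at 168 CPM in the lowest and 1629 CPM in the highest quartile of 571 nuclei. Scel rested on 5 and 41 counts in those quartiles, short of the 50 required of the other genes. Markers of other cell types moved with the quartiles of TAL-β by all 10 genes, distal convoluted tubule markers from 10.0 to 625 CPM and principal cell markers from 5.00 to 69.5 CPM between the lowest and the highest. The TAL claudin gene Cldn10 went from 10.0 to 119 CPM, a ratio of 11.9 (4.39 to 45.1) from 4 and 56 counts. Their part in the result was not tested.

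Cortical TAL-α gave lower ratios, from quartiles that rested on fewer counts. Ranbp3l averaged 0.761 counts per cortical and 6.30 per medullary TAL-α nucleus, and Magi2 2.45 and 3.68. The quartile ratios of the 2 regions are therefore not like for like. Of the 10 genes, 4 passed 1.5-fold, against 9.62% of 8636 other genes, and the median ratio was 1.33. Ranbp3l went from 127 to 483 CPM (ratio 3.81), Ano4 from 11.2 to 45.7 CPM and Enpp2 from 126 to 302 CPM, while Scel rested on a single count in the lowest quartile. Sgcz was at 1.09 (0.96 to 1.25), Pcsk6 at 1.00 (0.84 to 1.18), Scin at 0.88 (0.74 to 1.04) and Mrps6 at 0.85 (0.76 to 0.95). Summed other markers went from 918 to 3778 CPM across quartiles by all 10 genes, mostly proximal tubule genes, and without such barcodes the median ratio was 1.29. In cortical TAL-β 4 genes passed, against 12.5% of the other genes tested. In cortical MD 2 passed, against 8.9% of 3594, namely Scel and Ano4 at 2 and 7 counts in the highest quartile. Both fell short of the 50 counts required of the other genes, and no gene with that many counts passed in MD. Scel also fell short in cortical TAL-α and TAL-β, so the shares of other genes are not like for like with its passes.

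The number of genes found in a nucleus gives another view, though whether a gene is found depends on its level. After each nucleus was thinned to 1000 counts, medullary TAL-α nuclei held a mean of 4.17 of the 10 genes with a variance of 4.65, against 2.13 if each gene were found at its own frequency regardless of the others, a ratio of 2.18. None of the genes was found in 3.22% of nuclei, against 0.295% from the separate frequencies, and 8 or more in 5.72%, against 1.02%. The variance ratio was 1.82 in medullary TAL-β and 1.46 in medullary TAL-γ. It was 1.14 in cortical TAL-α, 1.08 in cortical TAL-β and 1.00 in cortical MD. Ranbp3l was found in 62.2% of medullary and 18.2% of cortical TAL-α nuclei, so the ratios of the regions are not like for like. In each of the 3 medullary classes, nuclei with none and nuclei with 8 or more of the genes were both more frequent than the separate frequencies gave. The part of any deep cortical nuclei in this was not tested. In cortical TAL-α and MD 8 or more were found in 0 nuclei, but the separate frequencies gave 0.000513% and 1.07e-05%, so nothing is read from that. In cortical TAL-β 1 nucleus held 8 or more, against 9.26e-05%.

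**Figure D5:**
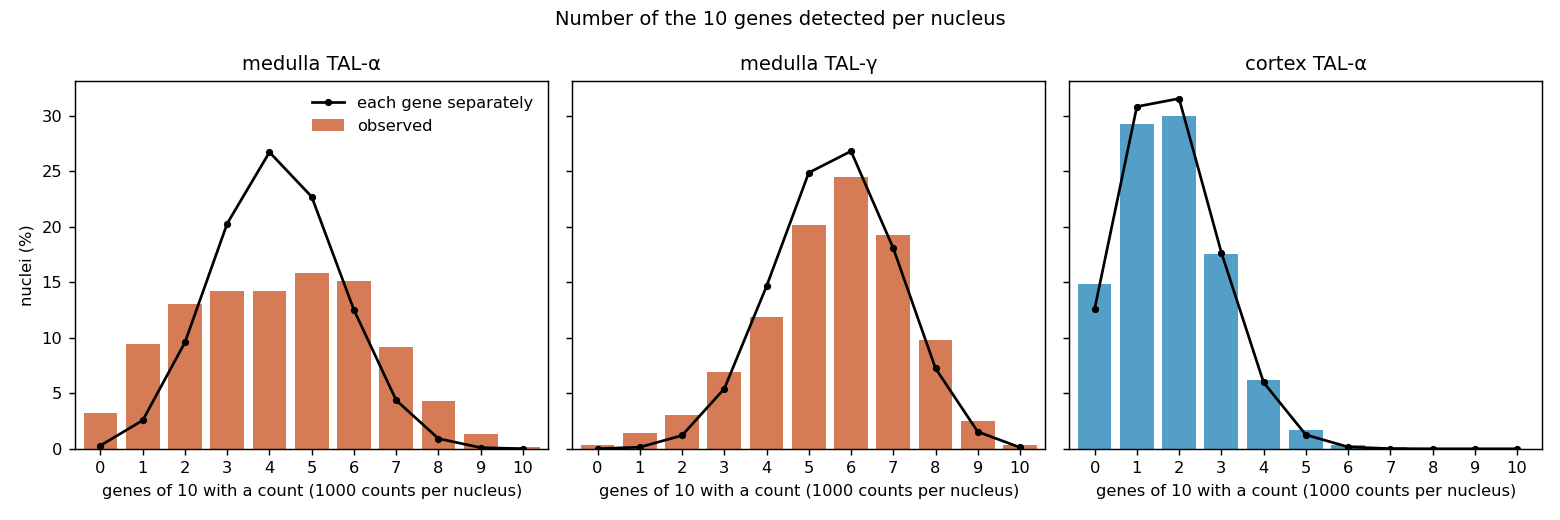
Percent of nuclei (bars) by how many of the 10 genes had a count after thinning to 1000 counts, with the percent that the separate frequencies of the genes give (black line). In medullary TAL-α the bars are flatter and wider than the line, while in cortical TAL-α they nearly follow it.

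The genes most like the block were taken as the 5 with the highest Pearson r to the summed share of the 10, among genes averaging at least 0.2 counts. In medullary TAL-α, of 2584 genes ranked, they were Slc5a3 (r = 0.55), Pax2 (0.54), 2210408F21Rik (0.50), Sim1 (0.45) and Hnrnpr (0.42). Pax2 and Sim1 encode transcription factors. In medullary TAL-γ, of 2665, they were Slc5a3 (0.39), Pax2 (0.37), Esrrg (0.37), 2210408F21Rik (0.32) and Sim1 (0.31). Esrrg encodes an estrogen-related receptor. These r values are over 3776 and 3542 nuclei that share a library. Egf, which was named after its values were seen, was at the other end in both classes, at -0.58 and -0.35.

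Slc5a3, whose start is that of Mrps6, was 2.99-fold (2.92 to 3.07) higher in medullary than in cortical TAL-α, at 2813 and 939 CPM, and Gm16310 3.14-fold (2.94 to 3.35), close to the 3.12-fold (2.99 to 3.26) of Mrps6. Over medullary TAL-α nuclei the rate correlation of Mrps6 was 0.89 with Slc5a3 and 1.01 with Gm16310, where an estimate may pass 1, and it was 0.85 and 1.05 in cortical TAL-α, where Mrps6 had at most 0.41 with any of the other 9 genes. The other 9 genes had a median of 0.39 with Slc5a3 in medullary TAL-α, highest for Ranbp3l at 0.66. How far shared reads enter these values was not tested. Without Mrps6 the median pairwise rate correlation of the block was 0.34 in medullary TAL-α.

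The study's medulla score holds the genes described here except Scel and Ano4, together with 2210408F21Rik, Gm16310, Cacnb4, Slc5a3 and Pax2, and its cortex score holds 13 others. Both scores were chosen by the study on these libraries, so their counts are not independent evidence of direction. From the lowest to the highest quartile of medullary TAL-α nuclei by all 10 genes, all 5 other medulla score genes were at least 1.5-fold higher. The share over 8650 genes was 8.96%, the median of the 5 was 3.74, and Pax2 stood at 454 and 1952 CPM. Slc5a3 and Gm16310 overlap Mrps6, which helped to order the quartiles, so their rise is not separate from that ordering. All 13 cortex score genes were at least 1.5-fold lower (median 0.05), against 14.6% of 8650 genes. Thsd4, a matrix protein of the thrombospondin-repeat family, went from 2299 to 26.8 CPM, against 2557 CPM in cortical TAL-α. Enox1 went from 2129 to 26.3 CPM, against 2577 CPM in cortical TAL-α. Among TAL markers Cldn16, the tight junction protein of the divalent cation path, went from 107 to 7.78 CPM, Umod (uromodulin) from 4823 to 3053 CPM and Slc12a1 from 18114 to 23276 CPM.

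Of the osmolyte genes, 5 had at least 50 counts across those quartiles. Slc5a3 was at 2.90, Slc38a2 (an amino acid transporter) at 4.01 and Akr1b3 (aldose reductase, which makes sorbitol) at 2.69 in the highest over the lowest quartile. Slc6a6, the taurine transporter, was at 0.31, and Nfat5 itself at 1.05. In TAL-α of medulla over cortex the values were 2.99 for Slc5a3, 3.38 for Slc38a2, 1.66 for Akr1b3, 0.35 for Slc6a6 and 1.17 for Nfat5. Slc6a12, the betaine transporter, had 0 counts in TAL-α of cortex, which allows up to 0.377 CPM, and 45 counts in TAL-α of medulla.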

How the data were processed

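Single-nucleus RNA was sequenced from 1 cortical and 1 medullary library of sorted TAL nuclei. The authors aligned reads to GRCm39 and assigned barcodes with PIPseeker 3.3.0, and the deposited matrices hold raw counts per gene and barcode, before their later doublet removal, ambient RNA correction and normalization. The annotation release, the use of strand and the sharing of reads between overlapping genes are not given in the sources used here. Clusters are the deposited graph clusters.

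Counts were summed per class, divided by class totals and given as CPM with exact Poisson intervals, ratios with exact conditional binomial intervals and shares with Clopper-Pearson intervals, all at 95%. With 1 library per region no p-value was computed. Rate correlations were tested before use on simulated data with known answers, and quartiles on data simulated without correlation. Both used the depths and gene means of medullary TAL-α. Counts of genes detected were computed there without a known answer, and the sparser cortical classes were not simulated. Doublets were kept, and calling them with Scrublet was tried as an alternative. It marked 338 cortical barcodes and only 2 medullary ones, too few to have worked, so the highest-scoring 5% of medullary barcodes were left out there. Free RNA was not subtracted: barcodes with at most 100 counts held 314 and 2887 CPM of Ranbp3l in cortex and medulla, near TAL-α of the same library.

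The genes and lists were chosen with earlier results of these data known. Named genes are the 10, the members of the listed scores, osmolyte and TAL lists, and the 5 most like the block. Positions and sequences came from GRCm39 and GENCODE M39, to which all 10 genes matched by identifier. Python 3.11.15, numpy 2.4.6, scipy 1.17.1, pandas 2.3.3, scanpy 1.11.5 and matplotlib 3.10.9 were used. Seurat 4.4.0 and bcl2fastq are named in the submitters' processing notes.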

Additional observations from a re-analysis of the deposited data

Results flagged for a closer look

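For 5 comparisons between classes, the cortical and the medullary library went in opposite directions. The difference was not tested, since each region is 1 library. All 5 ratios divide by TAL-α, the class in which the genes were chosen as higher in medulla. The changes of direction are therefore not read as opposite behaviour of MD or TAL-β. Ranbp3l, for instance, stood at 1219 and 1578 CPM in cortical and medullary MD, and at 269.7 and 2538 CPM in TAL-α. Ranbp3l in MD over TAL-α was at 4.52 in cortex and 0.622 in medulla, and Enpp2 at 1.33 and 0.642. In TAL-β over TAL-α, Ano4 was at 1.34 in cortex and 0.831 in medulla, Sgcz at 1.16 and 0.471, and Apbb2 at 1.10 and 0.627. Without barcodes holding 3 or more other markers the cortical values were 5.16 for Ranbp3l, 1.64 for Enpp2, 1.55 for Ano4, 1.30 for Sgcz and 1.02 for Apbb2, the last with an interval of 0.95 to 1.10 that includes no difference.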

How the results depend on the processing

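No paired analysis was possible because each region is 1 library with no replicate numbers, and for the same reason no library could be left out. Medians were set against 1 SD over genes or pairs. The count of genes at least 1.5-fold higher in medullary TAL-α was 8 to 10 over its alternatives, the lowest at a 2-fold limit, where 1.59% of genes passed. The median ratio ran from 2.96 to 3.96, that of TAL-γ over TAL-α from 1.16 to 1.43, and that of TAL-β over TAL-α from 0.37 to 0.56. The held-out ratios ran from 2.98 to 6.10 in TAL-α and 1.63 to 2.27 in TAL-γ, and the spread of genes detected from 2.16 to 2.34. The pairwise medians moved by more than 1 SD with ordinary Pearson r of depth-adjusted counts (0.207 in TAL-α, 0.0864 in TAL-γ), with Pearson r of log counts (0.210 and 0.0895) and, added after seeing the data, within deposited clusters (0.0974 and 0.0662); the first pair keeps counting noise by construction. Of 410 values for single genes, which cover the TAL-α region ratio, the medullary class ratios of TAL-γ and TAL-β to TAL-α and the held-out ratios of medullary TAL-α and TAL-γ, 395 stayed within 1.5 times, 14 moved further and 1 reversed, Ranbp3l in TAL-γ over TAL-α at 0.933 with classes taken from clusters. Outside that set, Magi2 in medullary over cortical TAL-β turned from 0.74 to 1.41 and Enpp2 moved from 1.42 to 4.27 without barcodes holding other markers, an alternative added after seeing the data. At these depths Scel, at 44 counts in cortical TAL-α, and the 78 medullary MD nuclei limit what can be read.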
